A study of Mus musculus with 5 samples.

Results

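Sla and a set of genes that dampen signalling from the T cell receptor (TCR) were examined for occupancy by RNA polymerase II (Pol II) in regulatory T (Treg) cells with and without Setd2. The set held 10 genes of the 12986 that carried a Pol II peak: Sla, Tg, Sla2, Cbl, Cblb, Ubash3a, Ubash3b, Ptpn22, Ptpn6 and Csk. They held 222 of the 56615 merged peaks. Sla was picked from the measurements themselves, because a peak inside it had more reads in the knockout libraries, and Tg was included because Sla lies inside it on the opposite strand. The counts of those genes are therefore given as a description, with no test. The other 8 genes were added for their known action on the same receptor and were tested.

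Pol II was profiled by CUT&Tag, in which a transposase tethered to an antibody inserts sequencing adaptors next to the bound protein. Nuclei were from CD3+CD4+YFP+ Treg cells of the spleen of 8-week-old C57BL/6 mice, female and male pooled, that had received IL-2c, a complex of 1 µg IL-2 and 5 µg anti-IL-2 given to increase Treg cell numbers, on 3 days running, and were taken 48 hours later. Control mice (Ctrl, Foxp3CreSetd2flox/+) had 1 floxed allele of Setd2, knockout mice (KO, Foxp3CreSetd2flox/flox) had both alleles floxed, and each genotype gave 2 libraries of 80000 nuclei. All mice thus carried the Cre recombinase driven by Foxp3, which acts in cells that express Foxp3, and all had received IL-2c, so no library came from untreated or Cre-free cells. The methods describe cells of 2 mice pooled per genotype. The methods also call each lot of 80000 nuclei a biological replicate. Whether the libraries of a genotype came from separate pools is still not clear, so p-values may measure only technical spread.

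The TCR signals through the kinases Lck and Zap70, and a layer of proteins limits that signal by removing phosphate groups, by marking receptor components with ubiquitin for breakdown, or by holding Lck in its inactive form. Sla encodes SLAP, an adaptor related to Src kinases but without a kinase domain, which brings the ubiquitin ligase Cbl to the receptor. Setd2 trimethylates lysine 36 of histone H3 and travels with Pol II as it elongates, so that the mark lies over transcribed gene bodies. Tg encodes thyroglobulin, the precursor of thyroid hormone.

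The libraries held between 4489646 and 13351007 counts, with library 1 deeper than library 2 in either genotype. Setd2 itself was not separated by genotype, with 525 and 513 normalized counts in Ctrl and 458 and 560 in KO (log2 fold change -0.04 ± 0.19 SE). These are sums over its 9 peaks, the floxed exons were not examined, and the counts do not check the deletion. All 6 Treg markers (Foxp3, Il2ra, Ikzf2, Ctla4, Cd4 and Cd3e) carried peaks, and their summed normalized count was 26386 to 32021 in Ctrl and 27794 to 32398 in KO. No peak lay in Cd8a, Cd8b1, Ncr1, Klrb1c or Eomes, 1 of 5 B cell markers had a peak (Cd79a, 67.7 to 121 normalized counts over the libraries), and 1 of 4 erythroid and megakaryocyte markers had one (Itga2b, 154 to 197). Of 5 myeloid markers, Spi1 and Cd68 had peaks, with sums of 1674 to 1744 in Ctrl and 1397 to 1534 in KO, while Lyz2, Csf1r and Itgam had none. The part of this difference in the results below was not tested. In these bulk libraries, a change in the number of cells of a type and a change in occupancy per cell cannot be told apart. No peak passed an adjusted p of 0.05 in the DESeq2 test over all peaks (0 of 56615, 0.00%), and 864 had an unadjusted p under 0.05. Of the gene sums, 13 of 12986 passed (0.100%).

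Sla spans chr15:66780819-66831829 on the minus strand (mm10) and lies wholly within Tg, at chr15:66670753-66850721 on the plus strand. It held 14 peaks, covering 60.2% of its length, and all 14 also counted for Tg, since CUT&Tag reads carry no strand. The peak by which Sla was picked lies at chr15:66786512-66788169, 44.5 kb from the 5′ end of the gene. It had 229 and 208 normalized counts in Ctrl 1 and Ctrl 2, and 381 and 477 in KO 1 and KO 2. Both KO libraries were above both Ctrl libraries, and the log2 fold change was 0.96 ± 0.24 (SE). Although the midpoint of the peak is intronic, the peak covers a coding exon of 132 bases (chr15:66787037-66787168). That exon is present in 4 of 4 coding transcripts of Sla in the GENCODE annotation. The sequence below is shown because it is the stretch of Sla under that peak. It gives the 300 bases at chr15:66786953-66787252 of GRCm38, read 5′ to 3′ on the minus strand, with the coding exon in capitals between the ag and gt of its splice sites.
Sla exon under the peak: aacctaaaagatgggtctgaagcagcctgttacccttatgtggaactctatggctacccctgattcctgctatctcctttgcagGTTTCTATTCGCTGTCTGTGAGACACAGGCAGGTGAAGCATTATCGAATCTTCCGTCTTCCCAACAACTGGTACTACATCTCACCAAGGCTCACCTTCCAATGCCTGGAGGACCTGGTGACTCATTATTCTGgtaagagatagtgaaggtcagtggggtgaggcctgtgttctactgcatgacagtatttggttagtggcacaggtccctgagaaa

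Along Sla, the difference between KO and Ctrl was small in the 5′ stretch and largest in the stretch toward the 3′ end, with no steady rise within either. The stretches described next were set after the values were seen and serve only to describe them. In the 6 peaks nearest the 5′ end, between 5.996 and 19.7 kb into the gene, the summed normalized count was 941 and 796 in Ctrl and 1014 and 923 in KO. The genotypes overlapped there, and the log2 fold changes of the single peaks ran from 0.09 to 0.26. In order from the 5′ end these were 0.26 ± 0.25, 0.21 ± 0.46, 0.11 ± 0.40, 0.16 ± 0.41, 0.09 ± 0.34 and 0.11 ± 0.24 (SE), so none stood further from 0 than about its own standard error.

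The middle of Sla carried 3 broad peaks of 5522 to 7317 bases that together held most of the reads of the gene. Their summed count was 3682 and 3066 in Ctrl against 4509 and 3861 in KO, a log2 ratio of the means of 0.31. All libraries of KO were above all libraries of Ctrl in each of these peaks. The broadest, 24.6 kb into the gene, had 1329 and 1111 normalized counts in Ctrl and 1517 and 1335 in KO (log2 fold change 0.23 ± 0.19). The next, at 31.4 kb, had 1242 and 1013 in Ctrl against 1582 and 1340 in KO (0.37 ± 0.20), and the last, at 37.7 kb, had 1111 and 942 in Ctrl and 1410 and 1185 in KO (0.34 ± 0.20).

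The 5 peaks toward the 3′ end had the largest log2 fold changes. Their summed count was 968 and 1077 in Ctrl against 1455 and 1860 in KO. KO was 1.50 times Ctrl in the libraries numbered 1 and 1.73 times in those numbered 2. This sum, and the share of counts given below, contain the peak by which Sla was picked, so they are a description only. Upstream of the picked peak, the peak at 42.0 kb had 417 and 463 normalized counts in Ctrl and 598 and 727 in KO (0.59 ± 0.21). Downstream of it, the peak at 46.5 kb had 212 and 252 in Ctrl and 332 and 393 in KO (0.64 ± 0.25). These neighbours of the picked peak shared its direction and had a smaller log2 fold change. The peak at 48.1 kb had 92.0 and 121 in Ctrl against 113 and 208 in KO (0.58 ± 0.36), and the last, at 49.5 kb in the untranslated part of the final exon, had 17.3 and 33.1 in Ctrl and 31.5 and 54.5 in KO (0.78 ± 0.59). The genotypes overlapped in both of these low peaks. The share of the Sla counts that lay in the 5 peaks was 17.3% and 21.8% in Ctrl and 20.9% and 28.0% in KO, so the libraries numbered 2 leaned toward the 3′ end in both genotypes.

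**Figure D1:**
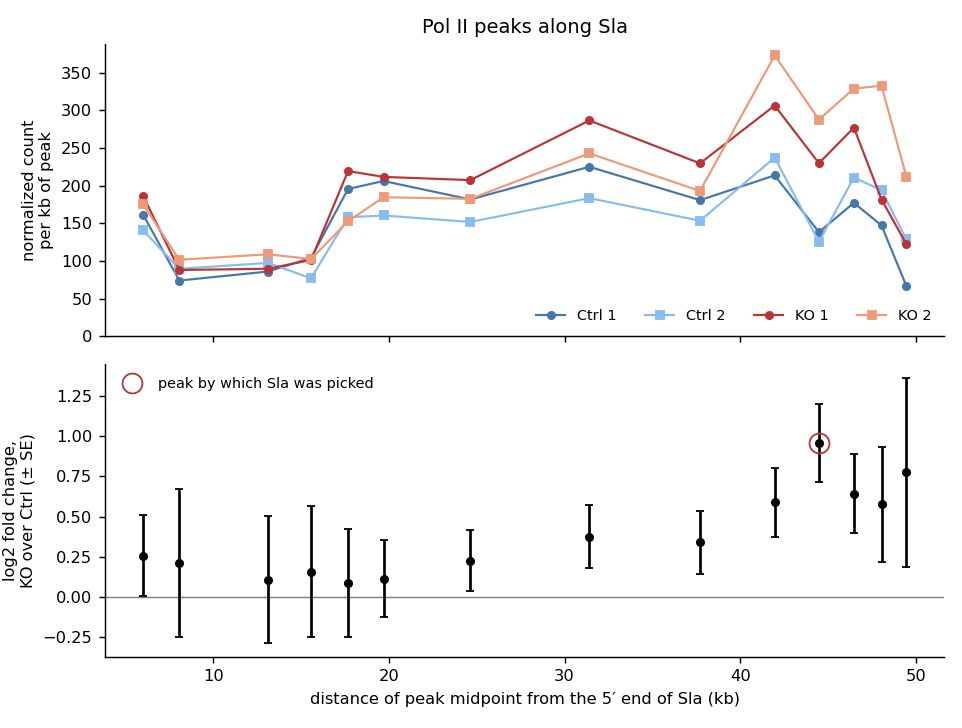
Upper panel, normalized count per kb of peak in each of the 4 libraries for the 14 peaks of Sla, against the distance of the peak midpoint from the 5′ end of the gene in kb. Lower panel, log2 fold change of KO over Ctrl with its SE for the same peaks; the values run from 0.09 to 0.26 in the first 6 peaks and from 0.58 to 0.96 in the last 5, with a ring around the peak by which Sla was picked.

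Summed over its 14 peaks, Sla had 5590 and 4939 normalized counts in Ctrl (5265 ± 460 SD, n = 2) and 6977 and 6644 in KO (6811 ± 236 SD, n = 2). Both KO libraries were above both Ctrl libraries, with a log2 fold change of 0.37 ± 0.13 (SE). All 14 peaks had a log2 fold change above 0, as did 27661 of all 56615 peaks, and in 7 of the 14 both KO libraries were above both Ctrl libraries, against 16.2% of all peaks. The sum and these peak counts contain the peak that picked the gene. The peaks also lie side by side in the same gene and were read in the same libraries, so they are not independent. The values for all peaks are therefore given for scale only, and no excess over them is claimed.

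Tg had 6855 and 6372 normalized counts in Ctrl and 8566 and 8327 in KO over 39 peaks (log2 fold change 0.35 ± 0.12). Between 77.5% and 81.5% of these counts lay in the peaks it shares with Sla, so its sum mostly repeats that of Sla. The 25 peaks of Tg outside Sla held 1265 and 1433 in Ctrl against 1589 and 1683 in KO, a log2 ratio of the means of 0.28. The difference was thus also present in the flanks of Sla, in peaks that the choice of Sla did not use, though they are small and lie in the same stretch of chromatin. Of these 25 peaks, 24 had a log2 fold change above 0 and 9 had both KO libraries above both Ctrl libraries, where 16.2% of all peaks in the table were so ordered. As neighbours read in the same libraries these peaks are not independent either, so the 16.2% is given for scale only.

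The first 9 peaks of Tg, from 30.1 to 59.8 kb into the gene, were low, between 13.7 and 172 normalized counts. They included the only peak of Tg below 0, at 46.2 kb, with 43.1 and 44.1 normalized counts in Ctrl and 24.9 and 35.8 in KO (log2 fold change -0.56 ± 0.53). The 8 others ran from 0.07 ± 0.45 at 48.0 kb to 0.75 ± 0.64 at 49.4 kb, with 0.08, 0.18, 0.55, 0.26, 0.14 and 0.70 between them and on either side. The 14 peaks from 78.6 to 109.5 kb ran from 0.04 ± 0.33 at 99.98 kb to 0.89 ± 0.77 at 95.4 kb. In the peak at 87.2 kb, which lies on a coding exon of Tg, there were 33.1 and 53.7 normalized counts in Ctrl and 71.9 and 74.9 in KO (0.78 ± 0.45). The others of this stretch had log2 fold changes of 0.40, 0.44, 0.53, 0.21 and 0.47 up to 96.0 kb, and of 0.05, 0.34, 0.17, 0.40, 0.13 and 0.06 from 101.6 kb to the 3′ end of Sla. Beyond the 5′ end of Sla, 2 small peaks together had 43.1 and 59.2 normalized counts in Ctrl and 79.0 and 109.001 in KO (0.63 ± 0.60 and 1.03 ± 0.52 singly).

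**Figure D2:**
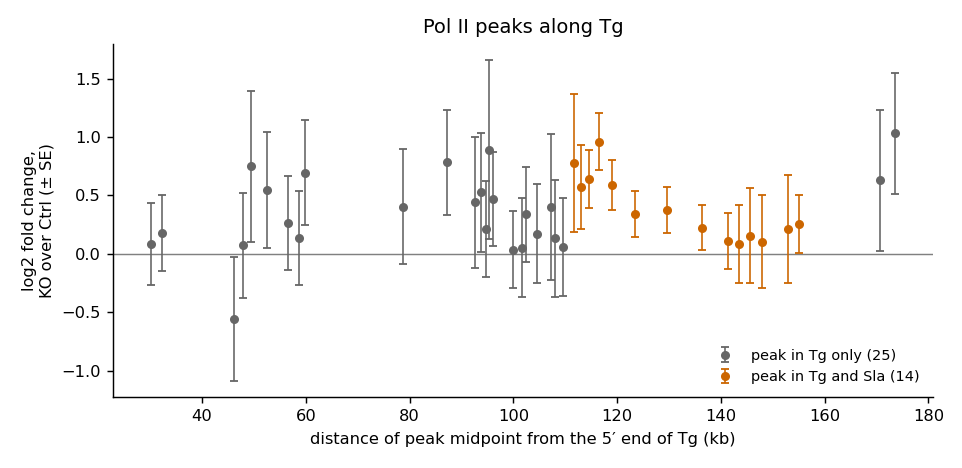
Log2 fold change of KO over Ctrl with its SE for the 39 peaks of Tg, against the distance of the peak midpoint from the 5′ end of Tg in kb. Orange points are the 14 peaks that also lie in Sla, where the highest value is that of the picked peak, near 117 kb, and grey points are the other 25, of which 24 lie above 0.

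In neither of the nearest other genes were both KO libraries above both Ctrl libraries. Ccn4, which starts 59.5 kb from the Sla start, had 291 and 303 normalized counts in Ctrl and 277 and 279 in KO (log2 fold change -0.09 ± 0.22), and Ndrg1, at 138 kb, had 736 and 514 in Ctrl and 652 and 695 in KO (0.10 ± 0.20). Both had a DESeq2 adjusted p of 1.00. Among 365 protein-coding genes with a mean count of at least 0.5 times that of Sla, the profile over the 4 libraries most like that of Sla belonged to Tg, which shares its reads (distance 0.06 between centred log2 values). Next came Fancc, a gene of the Fanconi anaemia DNA repair pathway (distance 0.11), and Ikzf3, which encodes the transcription factor Aiolos (distance 0.12).

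The sums of the 8 tested genes lay close to equal in the genotypes. None passed the DESeq2 test over all genes, each with an adjusted p of 1.00, and 0 of 8 had an unadjusted p under 0.05, against 2.62% of all genes (1.09% higher in KO and 1.52% lower). All 8 log2 fold changes were above 0, as were those of 5907 of all 12986 genes. The median of the 8 was 0.04, where the median of all genes was -0.02. The sign for Cbl, Ubash3a, Ubash3b, Ptpn22 and Ptpn6 turned in some of the alternative settings. In 2 of the 8, Sla2 and Csk, both KO libraries were above both Ctrl libraries, an order found in 15.2% of all genes.

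**Figure D3:**
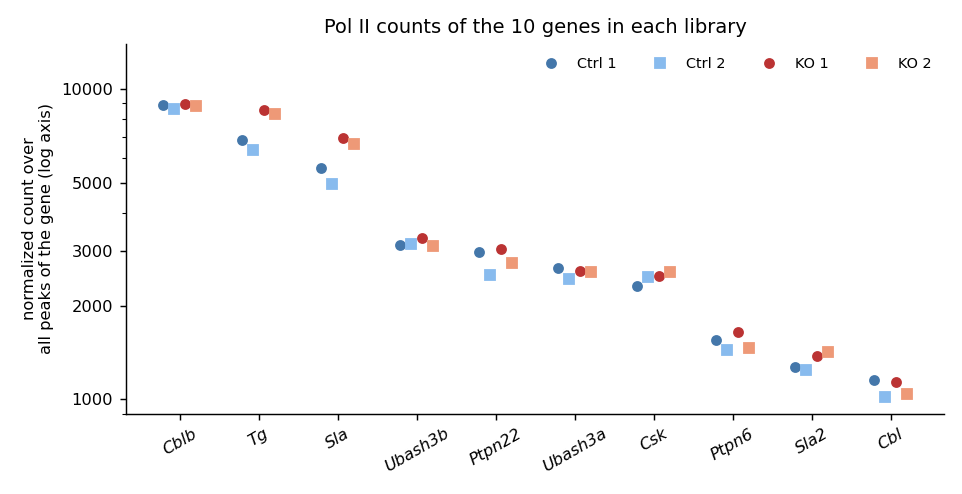
Normalized counts summed over all peaks of each of the 10 genes, on a log axis, with 1 point per library (blue Ctrl, red KO; circles for libraries numbered 1, squares for those numbered 2). Sla and Tg, which share 14 peaks, show KO above Ctrl by 0.37 and 0.35 on the log2 scale, while the other 8 genes differ by 0.01 to 0.16.

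Sla2 encodes SLAP2, the closest relative of SLAP, which also binds Cbl. It had 1272 and 1240 normalized counts in Ctrl and 1381 and 1422 in KO over 6 peaks, so the libraries did not overlap. The log2 fold change was 0.16 ± 0.14, with a 95% interval of -0.13 to 0.44. In 5 of its 6 peaks both KO libraries were above both Ctrl libraries, and in the sixth both were below, orders held by 16.2% and 16.1% of all peaks. As neighbours read in the same libraries these 6 peaks are not independent, so the shares are for scale only. Its highest peak, in the gene body at chr2:156877578-156880072, had 405 and 416 in Ctrl and 453 and 451 in KO (0.14 ± 0.21).

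Cbl and Cblb encode ubiquitin ligases that mark the TCR and its kinases, and Cblb in particular sets the need for costimulation. Cbl had 1156 and 1015 normalized counts in Ctrl and 1137 and 1042 in KO (log2 fold change 0.01 ± 0.16). Cblb, with 66 peaks the most of the set, had 8866 and 8625 in Ctrl and 8952 and 8848 in KO (0.03 ± 0.12). The genotypes overlapped for both genes, and the 95% interval for Cblb was -0.21 to 0.26. The highest peak of each lies at its start, with 436 and 271 in Ctrl against 394 and 322 in KO for Cbl (0.02 ± 0.27), and 865 and 792 in Ctrl against 850 and 812 in KO for Cblb (0.0047 ± 0.19, at chr16:52030962-52032312).

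Ubash3a and Ubash3b encode STS-2 and STS-1, phosphatase family proteins that restrain Zap70 signalling. Ubash3a had 2650 and 2446 normalized counts in Ctrl and 2592 and 2572 in KO (log2 fold change 0.02 ± 0.13). Ubash3b had 3147 and 3174 in Ctrl and 3323 and 3125 in KO (0.03 ± 0.13). Neither was separated by genotype. The highest peak of Ubash3a lies at its start and had 1144 and 988 in Ctrl and 1080 and 978 in KO (-0.05 ± 0.19), while that of Ubash3b lies 78.1 kb into the gene and had 408 and 424 in Ctrl and 387 and 438 in KO (-0.02 ± 0.22).

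Ptpn22 encodes the phosphatase PEP, Csk the kinase that phosphorylates the inhibitory tyrosine of Lck, and Ptpn6 the phosphatase SHP-1. Ptpn22 had 2984 and 2513 normalized counts in Ctrl and 3055 and 2747 in KO (log2 fold change 0.08 ± 0.15). Ptpn6 had 1554 and 1437 in Ctrl and 1648 and 1461 in KO (0.06 ± 0.15). Csk had 2325 and 2477 in Ctrl and 2505 and 2584 in KO (0.08 ± 0.13), where both KO libraries were above both Ctrl libraries but the means lay closer than the Ctrl libraries lay to each other. The highest peak of each was level, with 1293 and 1130 in Ctrl and 1262 and 1131 in KO for Ptpn22, 632 and 513 in Ctrl and 621 and 523 in KO for Ptpn6, and 568 and 667 in Ctrl and 599 and 647 in KO for Csk. The peak of Ptpn6 lies upstream of the gene and is shared with Grcc10, so its reads cannot be credited to either.

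Of the 183 peaks in the 8 tested genes, 0 passed the adjusted DESeq2 test and 3 had an unadjusted p under 0.05, against 1.53% of all peaks (0.862% higher in KO and 0.664% lower). All 3 had more reads in KO and a DESeq2 adjusted p of 1.00. In Ptpn22 the peak at chr3:103882932-103883227 had 15.8 and 24.8 normalized counts in Ctrl and 38.0 and 57.9 in KO (log2 fold change 1.25 ± 0.57). In Ptpn6 the peak at chr6:124721538-124722246, over coding exons 16.8 kb from the 5′ end and close to the 3′ end, had 72.6 and 74.4 in Ctrl and 114 and 128 in KO (0.71 ± 0.35). In Csk the peak at chr9:57628847-57629875, which overlaps 3 coding exons 24.3 kb into the gene, had 145 and 168 in Ctrl and 223 and 233 in KO (0.55 ± 0.27). Both KO libraries were above both Ctrl libraries in each of these 3, which were named for their low p and so add no separate evidence. Over the 183 peaks, 45 (24.6%) had that order, which 16.2% of all peaks held. Both KO libraries were below both Ctrl libraries in 19 of the 183, against 16.1%. Of the 183 peaks, 66 lie in Cblb and 44 in Ubash3b. Peaks of the same gene read in the same libraries are not independent, so the shares of all peaks are given for scale only and no excess is claimed.

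Because the log2 fold changes in Sla were largest toward its 3′ end, each gene was divided into 3 equal parts. The share of a gene's counts in the last, 3′ part was computed, a measure added after the data were seen. In Sla it was 37.2% and 40.9% in Ctrl and 41.1% and 45.8% in KO. As Sla gave rise to the question and its 3′ part holds the picked peak, this is a description. Both KO libraries were above both Ctrl libraries in 4 of the 8 tested genes, and below in 0, where 15.4% of 2391 protein-coding genes with at least 6 peaks were above and 8.32% below. In Csk the share was 20.7% in both Ctrl libraries and 24.9% and 24.3% in KO. In Ptpn6 it was 31.5% and 35.5% in Ctrl and 36.8% and 38.2% in KO. In Sla2 it was 10.7% and 10.8% in Ctrl against 11.3% and 14.6% in KO. In Ptpn22 it was 12.0% and 12.4% in Ctrl and 12.7% and 16.0% in KO. For each of these 4 genes the two-sided exact permutation p was 0.333, the smallest that 2 against 2 libraries can give. The median difference of KO from Ctrl over the 8 genes was 1.97 percentage points, beside 0.17 over the 2391 genes, and it was 0.36 without KO 2, 3.70 without KO 1, 0.88 for KO 1 against Ctrl 1 and 1.89 for KO 2 against Ctrl 2. The other 4 genes overlapped, most widely Cbl, at 40.5% and 57.1% in Ctrl and 46.3% and 54.9% in KO. Which genes had both KO libraries above depended on the cut. With 2 equal parts in place of 3, Sla2 overlapped (42.6% and 44.3% in Ctrl, 44.0% and 46.3% in KO). Cblb was then above (23.0% and 24.1% in Ctrl, 25.9% and 25.3% in KO), while Csk, Ptpn6 and Ptpn22 stayed above. With that cut 16.6% of the 2391 genes were above and 8.78% below.

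**Figure D4:**
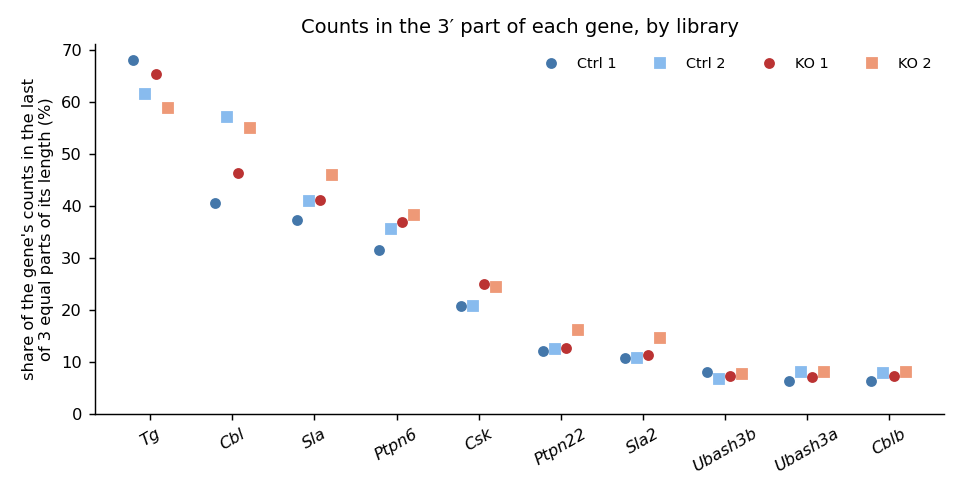
Share of the counts of each gene that lay in its 3′ part, the last of 3 equal parts of its length, in percent, with 1 point per library (blue Ctrl, red KO). Both KO libraries lie above both Ctrl libraries in Sla, Ptpn6, Csk, Ptpn22 and Sla2, by 2.15 to 4.42 percentage points between the means.

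By position, the median log2 fold change over the peaks of the 8 tested genes was 0.01 in the 5′ part, 0.08 in the middle part and 0.20 in the 3′ part of the gene. Over all 2391 genes with at least 6 peaks the same medians were -0.04, 0.01 and 0.03, so the order was shared and the spread smaller. In Sla the medians were 0.18, 0.17 and 0.62, the last over peaks that include the picked peak. The share of counts in peaks within 3 kb of an annotated start did not move as one across the 8 genes. It was lower in both KO libraries in Ubash3b (8.29% and 8.33% in Ctrl, 6.95% and 7.41% in KO) and in Ptpn22 (62.1% and 64.7% in Ctrl, 60.1% in both KO libraries), with an exact permutation p of 0.333 for each, where 13.4% of genes were lower. With a window of 1 kb neither kept this order: the difference was -0.35 percentage points in Ubash3b, from -1.13, and 0.51 in Ptpn22, from -3.33, and the genotypes overlapped in both. With the 3 kb window none was higher in both KO libraries, against 12.0% of genes. In Ptpn6 every peak lay within 3 kb of a start, so its share in that window was 100% throughout. With 1 kb, Csk was higher in both (27.4% and 26.9% in Ctrl, 33.7% and 32.6% in KO). So was Ptpn6 (33.4% and 34.5% in Ctrl, 35.6% and 34.8% in KO). Cblb was lower (12.6% and 12.2% in Ctrl, 12.0% and 11.9% in KO). With 1 kb, 12.0% of genes were higher and 14.2% lower.

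Relative to gene length, Sla had the highest count of the set, at 118 normalized counts per kb of gene (96.8 to 137 over the libraries). It was followed by Csk at 91.6, Sla2 at 90.2 and Ptpn6 at 84.7, whose library ranges overlapped one with the next. Ubash3a had 65.7, Ptpn22 53.9 and Cblb 49.9 per kb, with the ranges of Ptpn22 and Cblb overlapping. Tg had 41.8, Ubash3b 21.2 and Cbl 11.9 per kb, each apart from the next. Between 77.5% and 81.5% of the Tg counts lay in the peaks shared with Sla, so the place of Tg in this order rests mostly on those reads. These levels rest on called peaks, which covered 60.2% of Sla and 10.1% of Cbl.

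Pol II density at annotated starts differed among the genes. RefSeq promoter sequences (GRCm38.p6, 250 bases before to 50 after a start) were found for 8 of the 10 genes, and not for Sla and Tg. Starts of 4 genes are shown, with CpG dinucleotides in capitals, because they run from a dense Pol II peak to no called peak and include the relative of Sla. The Cblb start (chr16:52031299-52031598, plus strand) has 17 CpGs and lies under the densest of the promoter peaks, at 614 normalized counts per kb of peak. The Ubash3a start (chr17:31207816-31208115, plus strand) has 6 CpGs and a peak of 278 per kb. The distal Ubash3b start (chr9:41158013-41158312, minus strand) has 5 CpGs and no peak. The Sla2 start (chr2:156887172-156887471, minus strand) has 4 CpGs and a peak of 189 per kb. The median of 32851 mouse promoters of this length is 7 CpGs.
Cblb start: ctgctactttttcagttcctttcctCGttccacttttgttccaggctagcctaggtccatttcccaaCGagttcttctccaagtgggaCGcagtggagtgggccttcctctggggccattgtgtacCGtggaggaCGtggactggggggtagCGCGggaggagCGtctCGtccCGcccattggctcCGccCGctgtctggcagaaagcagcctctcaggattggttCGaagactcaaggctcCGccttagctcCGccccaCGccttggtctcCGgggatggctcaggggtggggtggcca
Ubash3a start: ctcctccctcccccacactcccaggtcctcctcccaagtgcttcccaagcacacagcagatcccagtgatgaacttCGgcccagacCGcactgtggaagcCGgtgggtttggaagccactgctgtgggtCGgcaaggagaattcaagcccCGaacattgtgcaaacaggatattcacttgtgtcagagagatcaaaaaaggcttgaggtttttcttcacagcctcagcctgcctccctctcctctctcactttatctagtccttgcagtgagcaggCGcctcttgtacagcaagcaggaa
Ubash3b distal start: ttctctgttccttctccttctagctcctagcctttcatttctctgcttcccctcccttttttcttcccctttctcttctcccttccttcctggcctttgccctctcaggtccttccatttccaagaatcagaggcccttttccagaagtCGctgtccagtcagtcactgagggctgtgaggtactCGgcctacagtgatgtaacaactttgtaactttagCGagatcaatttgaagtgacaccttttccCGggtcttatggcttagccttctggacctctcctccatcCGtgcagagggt
Sla2 start: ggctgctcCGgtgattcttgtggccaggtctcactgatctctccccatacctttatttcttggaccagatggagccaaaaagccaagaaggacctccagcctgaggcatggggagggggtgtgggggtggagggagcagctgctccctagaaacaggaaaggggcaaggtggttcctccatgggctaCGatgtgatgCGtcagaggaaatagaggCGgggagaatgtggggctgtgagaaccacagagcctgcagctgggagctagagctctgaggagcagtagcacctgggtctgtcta

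The peak over the Sla2 start had 400.4 and 390 normalized counts in Ctrl and 421 and 485 in KO (log2 fold change 0.19 ± 0.22). At the 24-CpG start of Csk the peak had 192 and 194 in Ctrl and 258 and 267 in KO (0.44 ± 0.25), so the libraries did not overlap, while the other Csk start had no peak. The Sp1 box, GGGCGG on either strand with overlapping matches counted, occurred 3 times at the Cblb start, 4 times at Cbl, 5 times at Ptpn6 and 1 time at the 24-CpG Csk start, and not in the other windows. It is in 35.7% of all promoters. The Runx site TGTGGT occurred 1 time at the Sla2 start and 3 times at 1 of the Ptpn22 starts, and is in 16.8% of all promoters. The NFAT core GGAAAA occurred 2 times at the distal Ubash3b start and 2 times at the other Csk start (23.4% of all promoters). The STAT site TTCNNNGAA occurred 1 time at the distal Ubash3b start and 1 time at the Ptpn22 start with the Runx sites (8.30%). The TATA box TATAAA occurred 1 time at the other Ptpn22 start (13.6%). The ETS, AP-1 and forkhead sites searched for were in none of these windows.

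Other genes of the same pathway were counted to set the 10 genes in context. Of 38 other genes that restrain TCR signals, 37 had a peak (Nedd4 had none). Their log2 fold changes were above 0 in 20 and below 0 in 17. Of all 12986 genes, 5907 were above 0 and 7079 below. The values of the list ran from -0.33 to 0.49, with a median of 0.02. None passed the adjusted DESeq2 test, 2 had an unadjusted p under 0.05 (2.62% of all genes) and both were lower in KO (1.52% of all genes). These were Dusp5 and Dusp4, phosphatases that switch off MAP kinases. Dusp5 had 8603 and 7415 normalized counts in Ctrl and 6910 and 5803 in KO (log2 fold change -0.33 ± 0.14). Dusp4 had 5400.3 and 4686 in Ctrl and 4494 and 3497 in KO (-0.33 ± 0.15). Both KO libraries were below both Ctrl libraries in each, and the adjusted p was 1.00. Over the list, 10 genes had both KO libraries above and 4 had both below, against 15.2% and 19.0% of all genes.

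Of 24 receptor chains, kinases and adaptors on which the set acts, among them Cd3e, Lck, Zap70, Lat and Lcp2, 23 had a peak (Syk had none). Their log2 fold changes were above 0 in 9 and below 0 in 14, beside 5907 and 7079 of all 12986 genes. The median of the targets was -0.02 and their range -0.27 to 0.18. None passed the adjusted DESeq2 test and 0 had an unadjusted p under 0.05, against 2.62% of all genes. Both KO libraries were above both Ctrl libraries in 5 and below in 5, against 15.2% and 19.0% of all genes.

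**Figure D5:**
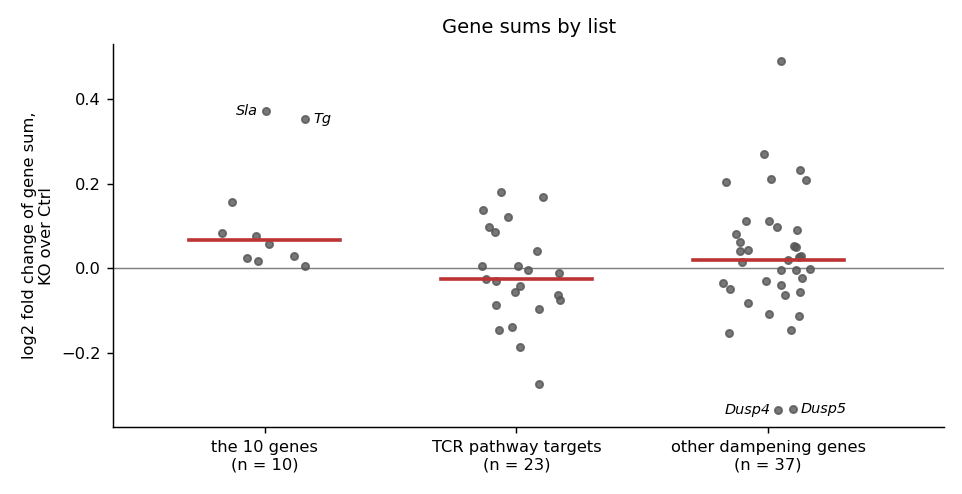
Log2 fold change of the gene sum, KO over Ctrl, for the 10 genes, the 23 TCR pathway targets and the 37 other dampening genes with a peak; each point is a gene and each red bar a median (0.07 with Sla and Tg, which were picked on these values, and 0.04 over the other 8 genes; -0.02 and 0.02 for the lists). Sla and Tg, which share reads, stand at 0.37 and 0.35, and Dusp4 and Dusp5 stand lowest at -0.33.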

How the data were processed

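Pol II CUT&Tag libraries of splenic Treg cells were compared, 2 Ctrl against 2 KO. The deposited table holds raw read counts per merged peak. The authors mapped reads to mm10 with Bowtie2, kept unique reads without duplicates, called peaks with MACS2 against IgG and merged and counted them with bedtools (versions not given in the sources used here). The IgG library was not analysed here, and 0 per-sample columns were left unused. Peaks were assigned by midpoint with GENCODE vM21 to each protein-coding gene body plus 3 kb upstream, otherwise to long non-coding genes. Of 56615 peaks, 47582 had a gene and 4968 more than 1. Peaks and gene sums were tested with DESeq2 1.42.0 (R 4.3.3; Wald test, two-sided, median-of-ratios size factors of the peak table, genotype only, Benjamini-Hochberg over the whole table, independent filtering at 0.05). Normalized counts are counts divided by size factors. The scripts were tested on simulated data. Shares were compared by exact permutation tests. Depth ran from 4489646 to 13351007 counts, so low peaks in the shallower libraries were the least precise. The members, lists and measures were chosen with earlier results of these data known. The text names every member and every peak of Sla and Tg, and otherwise the highest peak of a gene and peaks or listed genes with an unadjusted p under 0.05, the 3 genes most like Sla, and coding neighbours within 250 kb. Alternatives were edgeR 4.0.16, other size factors, count filters, a replicate block, other peak sets and leaving out each library. The list of thyroid markers is not reported here.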

Additional observations from a re-analysis of the deposited data

How the results depend on the processing

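The counts of genes and peaks past an adjusted p of 0.05 stayed at 0 for the 8 tested genes, their 183 peaks and the 23 targets under each alternative run: edgeR's quasi-likelihood test, TMM or total-count size factors, a mean of at least 10 counts, no independent filtering, a replicate block and leaving out each library, and, for gene sums, promoter peaks only, peaks outside the promoter, unshared peaks and no upstream extension. Not every feature could be called in each: with the block 135 of the 183 peaks and 3 of the 23 targets had no adjusted p, promoter peaks and unshared peaks each covered 22 targets, and peaks outside the promoter covered 18 targets and 7 of the 8 genes. For the other dampening genes the count was 0 except with the replicate block, which gave 2 (Dusp4 and Dusp5, lowest DESeq2 adjusted p 1.80e-06) and left 13 of 37 genes without an adjusted p. No label says whether libraries of the same number belong together. Deviations from the group means correlated at 0.23 between libraries of the same number, over 2 pairs. Counts in promoter peaks made up 57.2% in Ctrl 1 and 56.9% in KO 1, and 55.7% in Ctrl 2 and 55.5% in KO 2. Whether the numbers mark a batch was not tested. Over the whole table the block moved the gene sums called from 13 to 120, edgeR gave 0 and leaving out 1 library 0 to 6. At the peak level edgeR called 27 peaks, the block 25 and the main test 0.

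Directions of small log2 fold changes turned with the setting. Leaving out 1 library gave -0.083 to 0.11 for Cbl, -0.040 to 0.22 for Ptpn22, -0.036 to 0.15 for Ptpn6, -0.038 to 0.085 for Ubash3a and -0.018 to 0.080 for Ubash3b. Promoter peaks alone gave -0.0084 for Ubash3a and -0.18 for Ubash3b, and peaks outside the promoter gave -0.045 for Cbl and no value for Ptpn6. Sla ran from 0.29 to 0.47 and Tg from 0.30 to 0.41 with 1 library left out, and Tg was 0.28 over unshared peaks, which leave no value for Sla. The median difference in promoter share over the 8 tested genes was -0.038 percentage points, -0.27 to 0.12 with 1 library left out, and 0.57 with a window of 1 kb, where Csk moved from 1.60 to 5.95 points, Ptpn22 from -3.33 to 0.51 and Ubash3b from -1.13 to -0.35. The median difference in the share of the 3′ part was 1.97 points, 3.70 without KO 1, 0.36 without KO 2, 0.88 for KO 1 against Ctrl 1 only and 1.89 for KO 2 against Ctrl 2 only. The cause of these moves was not tested. Each genotype had 2 libraries, 1 of them shallower. In the main fit, differences of over 2 standard errors in single genes, such as those of Dusp4 and Dusp5, did not pass the adjusted test. In that fit 13 of 12986 gene sums passed.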
